A study of Homo sapiens with 12 samples.

Results

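The genes described here are 45 cell cycle and proliferation genes, measured by RNA sequencing in 3 human cell lines, JVM3, HG3 and MEC1. The labels give the cells as chronic lymphocytic leukaemia, in which mature B cells build up. The genes were taken by symbol from a count table of 57820 genes, all 45 were found, and all 45 passed the filter on low counts that left 21270 genes to test. Each line was sequenced with U1 carrying g.3A>C, a base change in the small nuclear RNA that pairs with the start of introns, and with U1 lacking it. The groups were mutant and wild-type JVM3, mutant and wild-type HG3, and mutant and wild-type MEC1, each with 2 technical replicates, 12 libraries in all. How mutant U1 was put into the cells, or whether a group is 1 clone, was not given in the sources used here. Nothing says that replicates came from separate cultures, so p-values within a line measure technical spread only, and the mutation and the culture that carries it cannot be told apart within a line.

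A dividing cell copies its DNA in S phase and then parts the copies in mitosis. The genes for both steps are switched on in waves. E2F factors, freed when cyclin-dependent kinases phosphorylate the RB proteins, turn on the S phase genes. MYBL2 bound to the MuvB complex, and then FOXM1, turn on the mitotic genes, and in resting cells MuvB joins other partners in the DREAM complex, which holds both waves down. In chronic lymphocytic leukaemia most cells in the blood rest outside the cycle and division takes place mainly in lymphoid tissue, whereas cell lines are grown as dividing cultures.

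Libraries held 29880079 to 39716818 counts assigned to genes. B cell markers were read in every library, at a summed 3431 to 6032 CPM (counts scaled to 1000000 assigned reads per library after TMM scaling), of which CD5, a surface antigen of this leukaemia, was at 40.4 to 42.3 CPM in HG3 and at most 0.508 in JVM3 and MEC1. The base change cannot be read from count tables, so the labels were not checked by it. Markers of monocytes summed to at most 2.41 CPM, of erythroid cells to at most 0.766, and of T cells to at most 0.84 in HG3 and MEC1 and 10.4 to 11 in JVM3, where CD4 made up nearly all. Reads outside annotated features, a value that can move with RNA quality, took 17.8% and 19% of the entries of mutant against 21.9% and 21.4% of wild-type JVM3 libraries, 23.6% and 24.9% of mutant against 21.2% and 23.4% of wild-type HG3 libraries, and 18.5% and 21.6% of mutant against 17.7% and 19% of wild-type MEC1 libraries. Markers of fibroblasts and epithelium summed to 5.91 and 6.55 CPM in mutant against 6.89 and 6.82 in wild-type JVM3, 5.32 and 5.21 in mutant against 4.24 and 4.35 in wild-type HG3, and 4.63 and 4.24 in mutant against 3.04 and 2.5 in wild-type MEC1. Of the 5 tested, COL1A1 was higher in mutant MEC1 and COL1A2 lower in mutant JVM3, and their part in the results was not tested. RNU1-1 is one of several nearly identical U1 genes, and entries without a unique alignment were not assigned to any gene. It had 58.4 and 59.1 CPM in mutant against 42.5 and 43.5 in wild-type JVM3, 249.6 and 165 in mutant against 29.5 and 28.8 in wild-type HG3, and 23.2 and 21.9 in mutant against 12.4 and 12 in wild-type MEC1.

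Promoter sequences are shown for 5 of the genes because the same short motifs recur among the genes of a wave. RefSeq windows (GRCh38.p14, from 250 bases before to 50 after the gene start) matched 36 of the 45 genes. They were searched on both strands for E2F letters (TTTCCCGC, TTTCGCGC, TTTGCCGC or TTTGGCGC), for the cell cycle homology region (TTTGAA or TTCGAA), the element that MuvB binds, and for CCAAT, the box bound by NF-Y. E2F letters in opposite orientations can overlap each other, as they do in MCM6, and such matches were counted separately. E2F1 and MCM6 stand for the S phase wave, and PLK1, CDC20 and KIF11 for the mitotic wave. Only the 250 bases before the start are printed, 5′ to 3′ on the gene's strand, with capitals on every match in either orientation.
E2F1 (chr20:33686386-33686635, minus strand): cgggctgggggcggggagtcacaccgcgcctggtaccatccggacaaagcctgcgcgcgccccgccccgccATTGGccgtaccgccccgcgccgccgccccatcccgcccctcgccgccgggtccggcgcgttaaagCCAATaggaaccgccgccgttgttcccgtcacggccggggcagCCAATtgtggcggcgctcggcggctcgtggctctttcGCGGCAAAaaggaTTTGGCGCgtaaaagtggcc
MCM6 (chr2:135876444-135876693, minus strand): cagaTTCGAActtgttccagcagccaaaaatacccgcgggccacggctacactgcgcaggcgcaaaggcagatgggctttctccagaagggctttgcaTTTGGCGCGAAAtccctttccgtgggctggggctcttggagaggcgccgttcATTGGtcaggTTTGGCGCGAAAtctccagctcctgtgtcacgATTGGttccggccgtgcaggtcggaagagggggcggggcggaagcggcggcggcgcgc
PLK1 (chr16:23678639-23678888, plus strand): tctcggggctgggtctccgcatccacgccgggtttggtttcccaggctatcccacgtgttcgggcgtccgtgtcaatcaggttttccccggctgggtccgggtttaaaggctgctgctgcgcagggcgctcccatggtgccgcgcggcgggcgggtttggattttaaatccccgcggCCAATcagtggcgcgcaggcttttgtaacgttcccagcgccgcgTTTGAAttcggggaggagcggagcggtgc
CDC20 (chr1:43358731-43358980, plus strand): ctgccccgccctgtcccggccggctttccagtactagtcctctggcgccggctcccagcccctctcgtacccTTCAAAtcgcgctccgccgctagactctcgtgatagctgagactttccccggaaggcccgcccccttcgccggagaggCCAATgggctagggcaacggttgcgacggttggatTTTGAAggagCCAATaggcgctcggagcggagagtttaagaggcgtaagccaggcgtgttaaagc
KIF11 (chr10:92592880-92593129, plus strand): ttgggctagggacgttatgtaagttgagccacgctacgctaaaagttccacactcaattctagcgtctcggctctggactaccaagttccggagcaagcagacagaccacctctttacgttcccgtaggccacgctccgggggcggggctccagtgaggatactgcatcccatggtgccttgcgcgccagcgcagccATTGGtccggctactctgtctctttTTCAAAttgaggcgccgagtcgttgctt
E2F letters stood 33 and 20 bases before the start of E2F1, in opposite orientations, and 4 times in the MCM6 window, as 2 overlapping pairs. The PLK1 and KIF11 windows held no E2F letters and 1 homology region each, 29 and 28 bases before the start, with a CCAAT box upstream of it. CDC20 held no E2F letters and homology regions 178 and 65 bases before the start, and MCM6 also held 1, 246 bases before the start.

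Over the 36 windows, E2F letters were found in 14 (38.9%), against 3.98% of the 27058 genes with a window. The homology region was found in 16 (44.4%), against 19.6%, and CCAAT in 29 (80.6%), against 39.8%. Split by wave, E2F letters were in 11 of 17 S phase genes and 3 of 19 genes of G2 and mitosis. The homology region was in 2 of 17 S phase genes and 14 of 19 genes of G2 and mitosis. A match describes the letters and is not a measured binding site.

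In mutant JVM3 and mutant HG3 the cell cycle genes were lower than in the wild-type line, and in mutant MEC1 most were level or higher. Within JVM3, 44 of the 45 were lower by edgeR's quasi-likelihood test at an adjusted p under 0.05, none was higher, and CCNE1 alone did not pass. Of all genes tested in JVM3, 12% were lower. Within HG3 all 45 were lower, against 19.6% of all genes, and 44 were lower in both lines, against 7.44%. Within MEC1, 25 were higher and 6 lower, and 14 did not pass, against 18% of all genes higher and 18.6% lower. The median log2 fold change, mutant over wild type, of the 45 genes was -0.43 for JVM3, -1.01 for HG3 and 0.11 for MEC1, beside medians of -0.02, 0.01 and 0 over all genes tested. Below, ± beside a log2 fold change within a line or between wild-type lines is the SE of the fit. The genes called lower in all 3 lines were TOP2A, MCM3, MCM6, AURKB, BUB1 and KIF11, 6 of 45 against 4.65% of all genes. Another 24 were lower in JVM3 and HG3 and higher in MEC1, a pattern of 0.766% of all genes.

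**Figure D1:**
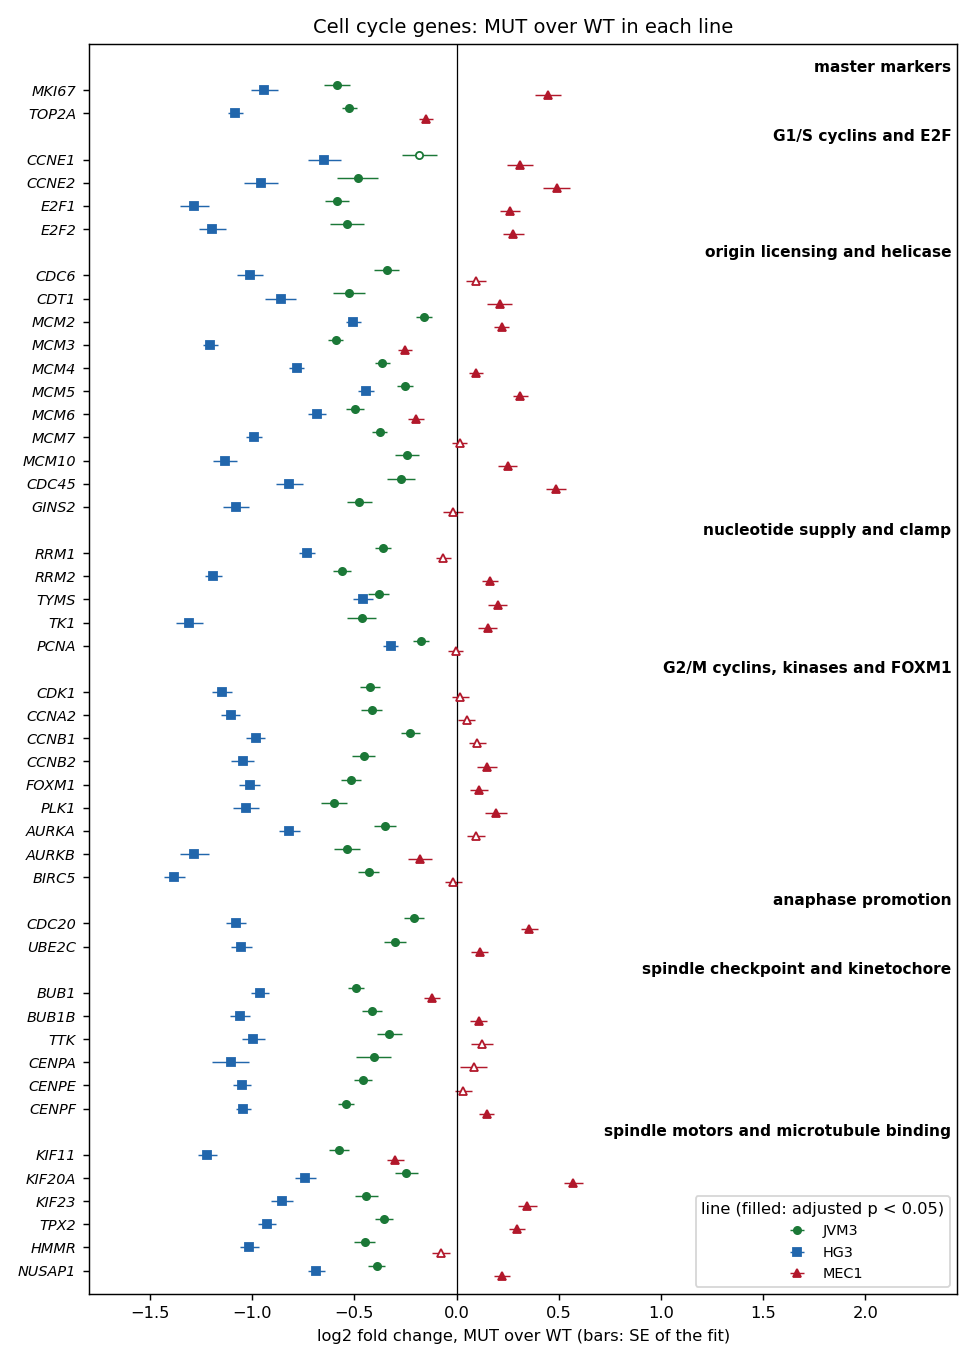
Log2 fold change of mutant over wild type (x axis) for each of the 45 genes (rows, grouped by role) in JVM3 (circles), HG3 (squares) and MEC1 (triangles). Bars are the SE of the edgeR fit and filled symbols passed at an adjusted p under 0.05. All 45 HG3 symbols and all 45 JVM3 symbols lie below 0, and MEC1 symbols lie on both sides.

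Summed over the 45 genes, mutant JVM3 libraries held 3027 and 3054 CPM, against 4025 and 4039 in wild-type JVM3, a ratio of means of 0.754. Mutant HG3 libraries held 2897 and 2888 CPM, against 5289.7 and 5322 in wild-type HG3, a ratio of 0.545. Mutant MEC1 libraries held 8791 and 8887 CPM, against 8158 and 8349 in wild-type MEC1, a ratio of 1.07. The libraries of the 2 groups did not overlap in any line. Gene by gene, both mutant libraries lay below both wild-type libraries for 45 of 45 genes in JVM3 and 45 of 45 in HG3, against 31.6% and 32.7% of all genes. In MEC1 they lay below for 8 genes, above for 30 and overlapped for 7, against 31.3% of all genes below and 30.2% above. In bulk RNA, fewer cells in a phase and less RNA per cell cannot be told apart.

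**Figure D2:**
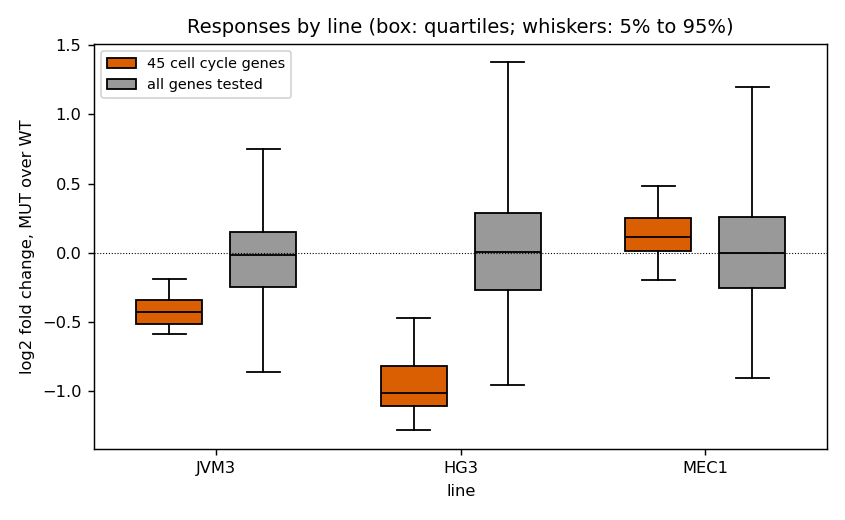
Log2 fold change of mutant over wild type (y axis) in each line for the 45 cell cycle genes (orange) beside all 21270 genes tested (grey). Boxes span the quartiles with the median as a line, and whiskers run from 5% to 95%. The medians of the 45 genes were -0.43, -1.01 and 0.11.

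Across the 3 lines, with replicates summed and the line as a block, 1 of the 45 genes passed: MCM6, lower in mutant cells. Of all genes, 1.86% were lower and 1.83% higher by this test. All 45 had a log2 fold change under 0, with a median of -0.45 beside -0.01 over all genes tested, and 10 had an unadjusted p under 0.05, against 11.5% of all genes lower at that level. The test has 3 lines, and MEC1 differed from the others in direction for most of the genes. The count depended on the setting. Without MEC1, 26 of the 45 were lower, against 1.77% of all genes. Without JVM3 it was 0, against 0.889%, and without HG3 it was 1, against 1.44%. With all lines, DESeq2 called 6 of the 45 lower, against 3.7% of all genes. It was 0 with no TMM factor and 0 against a fold threshold of 1.2.

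The G1/S regulators were E2F1 and E2F2, activators of the S phase wave, and CCNE1 and CCNE2, cyclins that drive CDK2 at S phase entry. All 4 were lower in HG3, 3 were lower in JVM3, and all 4 were higher in MEC1. E2F1 had 23.2 and 24.7 CPM in mutant against 34.7 and 37.3 in wild-type JVM3, 10.2 and 11 in mutant against 25.8 and 25.8 in wild-type HG3, 85.8 and 82.8 in mutant against 71.7 and 68.8 in wild-type MEC1. The mutant libraries were lower in JVM3 and HG3 and higher in MEC1, with no overlap in any line. Within lines its log2 fold change was -0.59 ± 0.06 for JVM3, -1.28 ± 0.07 for HG3 and 0.26 ± 0.05 for MEC1 (adjusted p = 1.44e-10, 1.12e-19 and 2.33e-05), and across lines -0.52 (SE 0.45, adjusted p = 0.339). E2F2 had 9.39 and 8.6 CPM in mutant against 12.9 and 13.1 in wild-type JVM3, 15.1 and 17.3 in mutant against 38.6 and 35.3 in wild-type HG3, 89.8 and 89.9 in mutant against 75.6 and 72.6 in wild-type MEC1. CCNE2 had 6.34 and 5.86 CPM in mutant against 8.41 and 8.61 in wild-type JVM3, 8.54 and 9.41 in mutant against 16.8 and 18.1 in wild-type HG3, 38.6 and 39.6 in mutant against 26.7 and 29 in wild-type MEC1. Both showed the directions of E2F1, with log2 fold changes for CCNE2 of -0.48 ± 0.10 for JVM3, -0.96 ± 0.08 for HG3 and 0.49 ± 0.06 for MEC1. CCNE1 had 11.5 and 10.4 CPM in mutant against 12.2 and 12.6 in wild-type JVM3, a log2 fold change of -0.18 that did not pass (adjusted p = 0.13).

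The origin licensing and helicase genes load and start the replicative helicase. MCM2 to MCM7 form its ring, CDC6 and CDT1 load the ring, and CDC45 and GINS2 complete the active helicase with the help of MCM10. All 11 were lower in JVM3 and in HG3, and in MEC1 6 were higher, 2 lower and 3 did not pass. MCM6 had 57.5 and 58 CPM in mutant against 82.1 and 81.2 in wild-type JVM3, 56.7 and 58.9 in mutant against 92.9 and 92.9 in wild-type HG3, 149.9 and 154 in mutant against 169.8 and 179.8 in wild-type MEC1. Mutant libraries were lower in all 3 lines and overlapped with wild type in none. Within lines MCM6 (Ensembl ENSG00000076003.4) had log2 fold changes of -0.50 ± 0.04 for JVM3, -0.68 ± 0.04 for HG3 and -0.20 ± 0.04 for MEC1 (adjusted p = 3.99e-12, 2.25e-17 and 5.51e-05), and across lines its value was -0.46 (SE 0.14, n = 3 lines, adjusted p = 0.0438). This call was near the threshold: the adjusted p was 0.154 without JVM3, 0.101 without HG3 and 0.0575 without wild-type replicate 2 of MEC1.

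Other subunits of the same ring had other directions or sizes. MCM3 had 123 and 129.6 CPM in mutant against 192 and 189 in wild-type JVM3, 92.1 and 91.5 in mutant against 212 and 211 in wild-type HG3, 372 and 372 in mutant against 438 and 448 in wild-type MEC1. MCM2 had 210.5 and 209 CPM in mutant against 236 and 233 in wild-type JVM3, 171 and 176 in mutant against 257 and 235 in wild-type HG3, 412 and 403 in mutant against 355 and 345 in wild-type MEC1. MCM7 had 163 and 165 CPM in mutant against 212 and 214 in wild-type JVM3, 117 and 113 in mutant against 236 and 222 in wild-type HG3, 674 and 644 in mutant against 661 and 644 in wild-type MEC1. MCM3 was lower in each line (-0.59 ± 0.04 for JVM3, -1.20 ± 0.04 for HG3 and -0.25 ± 0.03 for MEC1) and across lines stood at -0.68 (SE 0.28, adjusted p = 0.0973). MCM2 was lower in JVM3 and HG3 and higher in MEC1 (-0.16 ± 0.04 for JVM3, -0.51 ± 0.04 for HG3 and 0.22 ± 0.04 for MEC1). MCM7 was lower in JVM3 and HG3, and its MEC1 libraries overlapped (-0.38 ± 0.04 for JVM3, -0.99 ± 0.04 for HG3 and 0.01 ± 0.03 for MEC1). MCM4 and MCM5 showed the directions of MCM2. The range of the 6 ring genes in HG3 thus ran from -1.20 for MCM3 to -0.44 for MCM5.

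CDC45 had 15.3 and 15.3 CPM in mutant against 18.2 and 18.6 in wild-type JVM3, 15.1 and 16.6 in mutant against 27.7 and 28.3 in wild-type HG3, 82.6 and 81.1 in mutant against 57.4 and 59.3 in wild-type MEC1. Its rise in MEC1, 0.49 (SE 0.05, adjusted p = 4.78e-11), was among the 5 largest of the 45 genes there. CDC6 had 27.3 and 27.9 CPM in mutant against 33.5 and 36.3 in wild-type JVM3, 20.8 and 18.5 in mutant against 41.3 and 37.8 in wild-type HG3, 111 and 111 in mutant against 99.8 and 108 in wild-type MEC1. GINS2 had 18.4 and 19.8 CPM in mutant against 27.2 and 26.1 in wild-type JVM3, 15.8 and 16.7 in mutant against 34.4 and 34.4 in wild-type HG3, 77.5 and 82.2 in mutant against 79.97 and 81.6 in wild-type MEC1. Both were lower in JVM3 and HG3 and did not pass in MEC1, where their values were 0.09 ± 0.05 and -0.02 ± 0.05. CDT1 and MCM10 were lower in JVM3 (-0.53 and -0.24) and HG3 (-0.86 and -1.13) and higher in MEC1 (0.21 and 0.25, log2 fold changes).

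**Figure D3:**
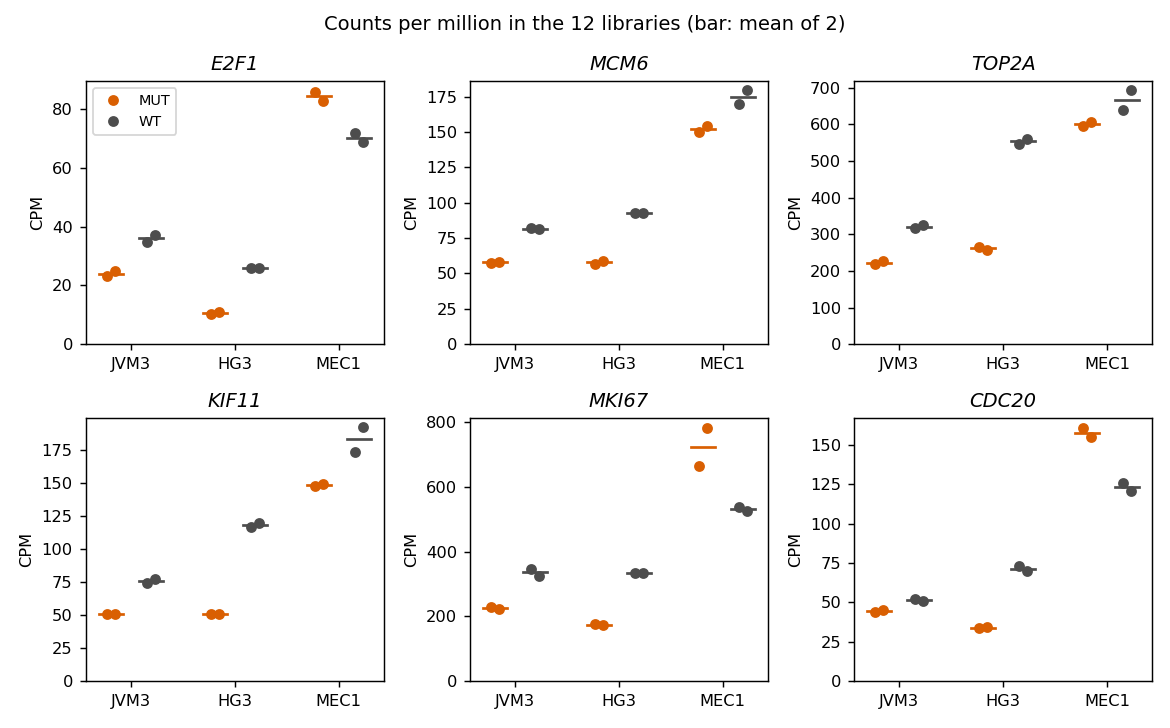
CPM (y axis, from 0) of E2F1, MCM6, TOP2A, KIF11, MKI67 and CDC20 in the 12 libraries, with mutant (orange) left of wild type (grey) in each line and a bar at the mean of 2. Mutant points lie under wild-type points in JVM3 and HG3 in all 6 panels, and in MEC1 they lie above for E2F1, MKI67 and CDC20 and under for the other 3.

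The genes of nucleotide supply are RRM1 and RRM2, subunits of ribonucleotide reductase, TYMS, which makes thymidylate, and TK1, which salvages thymidine, and with them stands PCNA, the sliding clamp of the DNA polymerases. All 5 were lower in JVM3 and HG3, and in MEC1 RRM2, TYMS and TK1 were higher while RRM1 and PCNA did not pass. RRM2 had 52.7 and 53.3 CPM in mutant against 77.4 and 79.1 in wild-type JVM3, 56.2 and 58 in mutant against 126 and 134 in wild-type HG3, 210.1 and 216 in mutant against 188 and 193 in wild-type MEC1. RRM1 had 78.5 and 77.6 CPM in mutant against 99.1 and 101 in wild-type JVM3, 95.4 and 94.6 in mutant against 155 and 161 in wild-type HG3, 219.6 and 221 in mutant against 229.7 and 232 in wild-type MEC1. The 2 subunits had values of opposite sign in MEC1, where RRM2 was at 0.16 ± 0.04 and RRM1 at -0.07 ± 0.04, on the log2 scale, while both were lower in HG3, at -1.19 ± 0.04 and -0.73 ± 0.04. No test of RRM2 against RRM1 was made.

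TK1 had 16.7 and 15.2 CPM in mutant against 22.7 and 21.3 in wild-type JVM3, 17.6 and 16.3 in mutant against 43.2 and 40.7 in wild-type HG3, 117 and 107 in mutant against 102 and 100.3 in wild-type MEC1. In HG3 its log2 fold change of -1.31 ± 0.06 was the second lowest of the 45 genes. PCNA had 231 and 247 CPM in mutant against 264 and 276 in wild-type JVM3, 318 and 329 in mutant against 392 and 417 in wild-type HG3, 312 and 307 in mutant against 305 and 315 in wild-type MEC1. The PCNA responses were the smallest of the 45 genes in HG3, at -0.32 ± 0.04 (adjusted p = 1.01e-09), and its MEC1 libraries overlapped. TYMS was at -0.38 ± 0.05 for JVM3, -0.46 ± 0.05 for HG3 and 0.20 ± 0.05 for MEC1, and it was the single gene that did not pass the test of HG3 minus JVM3 responses (adjusted p = 0.52).

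The genes of G2 and mitotic entry are CDK1 with its cyclins CCNA2, CCNB1 and CCNB2, the factor FOXM1, the kinases PLK1, AURKA and AURKB, and BIRC5 (survivin), which works with AURKB in the chromosomal passenger complex. All 9 were lower in JVM3 and in HG3. In MEC1 CCNB2, FOXM1 and PLK1 were higher, AURKB was lower and 5 did not pass. CDK1 had 45.9 and 45.7 CPM in mutant against 62.4 and 60.8 in wild-type JVM3, 40.1 and 38.7 in mutant against 85.7 and 89 in wild-type HG3, 147 and 155 in mutant against 143 and 155 in wild-type MEC1. CCNB1 had 78 and 81.6 CPM in mutant against 92.3 and 94.4 in wild-type JVM3, 53.9 and 51.4 in mutant against 106 and 101 in wild-type HG3, 164 and 169 in mutant against 148 and 162 in wild-type MEC1. Mutant and wild-type libraries were apart in JVM3 and HG3 for both genes, and overlapped in MEC1 for CDK1. CDK1 was at -0.43 ± 0.05 for JVM3, -1.15 ± 0.05 for HG3 and 0.02 ± 0.04 for MEC1 and CCNB1 at -0.23 ± 0.05 for JVM3, -0.98 ± 0.05 for HG3 and 0.10 ± 0.04 for MEC1, as log2 fold changes, and across lines their adjusted p was 0.23 and 0.355.

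BIRC5 had 31.2 and 32.3 CPM in mutant against 42.2 and 43.3 in wild-type JVM3, 28.7 and 27.2 in mutant against 72.5 and 73.1 in wild-type HG3, 127 and 121 in mutant against 124 and 126 in wild-type MEC1. In HG3 its log2 fold change of -1.38 ± 0.05 (adjusted p = 3.79e-26) was the lowest of the 45 genes, and in MEC1 its libraries overlapped. AURKB had 29.1 and 28 CPM in mutant against 41 and 41.7 in wild-type JVM3, 14.6 and 17.2 in mutant against 38.8 and 38.6 in wild-type HG3, 44.2 and 40.8 in mutant against 50.9 and 45.4 in wild-type MEC1. AURKB was lower in all 3 lines, at -0.54 ± 0.06 for JVM3, -1.28 ± 0.07 for HG3 and -0.18 ± 0.06 for MEC1, and the MEC1 call was lost with DESeq2 (adjusted p = 0.0658), without mutant replicate 2 (0.179) and without wild-type replicate 1 (0.361) of MEC1. PLK1 had 28.8 and 25.3 CPM in mutant against 43.4 and 38.5 in wild-type JVM3, 23.9 and 24.4 in mutant against 50.2 and 48.4 in wild-type HG3, 80.6 and 73.5 in mutant against 68.7 and 66.2 in wild-type MEC1. In JVM3 its log2 fold change of -0.60 ± 0.06 was the lowest of the 45 genes. CCNA2 had 42.7 and 47 CPM in mutant against 60.8 and 59 in wild-type JVM3, 48.7 and 48.9 in mutant against 101 and 109 in wild-type HG3, 211 and 213 in mutant against 199.5 and 211 in wild-type MEC1. FOXM1 had 40.7 and 39.9 CPM in mutant against 56.7 and 58.5 in wild-type JVM3, 25.4 and 26.2 in mutant against 52.2 and 51.8 in wild-type HG3, 102 and 99.1 in mutant against 95 and 91.4 in wild-type MEC1. FOXM1 was higher in MEC1 by 0.11 on the log2 scale (adjusted p = 0.0432), while CCNA2 did not pass there (adjusted p = 0.402).

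CDC20 and UBE2C act with the anaphase-promoting complex, which marks cyclin B and securin for destruction, CDC20 as its activator and UBE2C as its ubiquitin-conjugating enzyme. Both were lower in JVM3 and HG3 and higher in MEC1. CDC20 had 43.8 and 44.9 CPM in mutant against 51.9 and 50.6 in wild-type JVM3, 33.7 and 34 in mutant against 72.8 and 70.04 in wild-type HG3, 161 and 155 in mutant against 126 and 121 in wild-type MEC1. The groups did not overlap in any line, and the log2 fold changes were -0.21 ± 0.05 for JVM3, -1.08 ± 0.05 for HG3 and 0.36 ± 0.04 for MEC1 (adjusted p = 0.000928, 6.74e-23 and 8.66e-10). UBE2C had 29.5 and 27.9 CPM in mutant against 34.6 and 36 in wild-type JVM3, 32.7 and 31.8 in mutant against 67.5 and 66.3 in wild-type HG3, 117 and 114 in mutant against 109 and 105 in wild-type MEC1. UBE2C was at -0.30 ± 0.05 for JVM3, -1.05 ± 0.05 for HG3 and 0.11 ± 0.04 for MEC1, and across lines neither passed (adjusted p = 0.554 for CDC20 and 0.332 for UBE2C).

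The spindle checkpoint and kinetochore genes are BUB1, BUB1B and TTK, which hold anaphase back until chromosomes are attached, the centromeric histone gene CENPA, and CENPE and CENPF of the outer kinetochore. All 6 were lower in JVM3 and HG3, and in MEC1 BUB1B and CENPF were higher, BUB1 was lower and 3 did not pass. BUB1 had 96.7 and 98 CPM in mutant against 136 and 137 in wild-type JVM3, 61 and 60.6 in mutant against 118 and 119 in wild-type HG3, 159 and 161 in mutant against 169 and 179 in wild-type MEC1. CENPF had 154 and 154 CPM in mutant against 225 and 223 in wild-type JVM3, 168 and 171 in mutant against 341 and 358 in wild-type HG3, 532 and 552 in mutant against 474 and 506 in wild-type MEC1. BUB1 and CENPF were thus apart in every line, with opposite directions in MEC1, where BUB1 was at -0.12 ± 0.04 and CENPF at 0.15 ± 0.04 (adjusted p = 0.0115 and 0.000816). TTK, CENPA and CENPE had HG3 log2 fold changes of -0.99, -1.11 and -1.05.

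Of the spindle motors and microtubule-binding proteins, KIF11 (Eg5) pushes the spindle poles apart, KIF20A and KIF23 work in cytokinesis, TPX2 activates AURKA on the spindle, and HMMR and NUSAP1 bind microtubules. All 6 were lower in JVM3 and HG3, and in MEC1 4 were higher, KIF11 was lower and HMMR did not pass. KIF11 had 50.6 and 50.9 CPM in mutant against 73.8 and 77.4 in wild-type JVM3, 50.5 and 50.9 in mutant against 116 and 119.6 in wild-type HG3, 148 and 149.5 in mutant against 174 and 192 in wild-type MEC1. KIF11 was lower in all 3 lines (-0.58 ± 0.05 for JVM3, -1.22 ± 0.05 for HG3 and -0.30 ± 0.04 for MEC1), was the lowest of the 45 genes in MEC1, and had an adjusted p of 0.0885 across lines, with a log2 fold change of -0.70 (SE 0.27). The adjusted p was 0.0392 without mutant replicate 2 of HG3, 0.0394 without HG3 and 0.0311 without MEC1. KIF20A had 27.1 and 29.1 CPM in mutant against 33.2 and 33.5 in wild-type JVM3, 34.8 and 33.4 in mutant against 56.6 and 57.4 in wild-type HG3, 92.6 and 93.1 in mutant against 60.8 and 64.3 in wild-type MEC1. KIF20A had the largest rise of the 45 genes in MEC1, 0.57 ± 0.05. TPX2 had 82.9 and 76.9 CPM in mutant against 102 and 102 in wild-type JVM3, 69 and 63.7 in mutant against 124 and 128 in wild-type HG3, 228 and 236 in mutant against 189.9 and 188 in wild-type MEC1. TPX2 was at -0.36 ± 0.04 for JVM3, -0.93 ± 0.04 for HG3 and 0.29 ± 0.04 for MEC1, and KIF23 and NUSAP1 shared its directions.

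MKI67 encodes Ki-67, the antigen used to count dividing cells, and TOP2A encodes the topoisomerase that untangles sister chromatids. MKI67 had 227 and 221 CPM in mutant against 347 and 325 in wild-type JVM3, 175 and 173 in mutant against 334 and 334 in wild-type HG3, 666 and 783 in mutant against 537 and 525 in wild-type MEC1. The mutant libraries lay below wild type in JVM3 and HG3 and above it in MEC1, and the mutant MEC1 libraries were further apart from each other than those of other groups. Its log2 fold change was -0.58 ± 0.06 for JVM3, -0.94 ± 0.07 for HG3 and 0.45 ± 0.06 for MEC1 (adjusted p = 8.42e-05, 7.69e-07 and 0.000217). TOP2A had 219.9 and 226 CPM in mutant against 316 and 326 in wild-type JVM3, 265 and 258 in mutant against 547 and 561 in wild-type HG3, 596 and 606 in mutant against 640.2 and 695 in wild-type MEC1. TOP2A was lower in all 3 lines, at -0.53 ± 0.04 for JVM3, -1.08 ± 0.04 for HG3 and -0.15 ± 0.04 for MEC1, and the MEC1 call was lost without wild-type replicate 2 of MEC1 (adjusted p = 0.0712).

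The difference between lines was tested directly. With 2 degrees of freedom, the response differed between the lines for all 45 genes, against 32% of all genes tested. HG3 minus MEC1 was below 0 and passed for 45 genes, against 12% of all genes, with differences from -1.54 for E2F1 to -0.32 for PCNA. JVM3 minus MEC1 was below 0 and passed for 45, against 9.51%, with a median of -0.49. HG3 minus JVM3 was below 0 and passed for 44, against 10.5%, with a median of -0.57. Over the 45 genes the responses of HG3 and JVM3 were related with Pearson's r of 0.569 (Spearman's rho 0.512), HG3 and MEC1 with 0.267 (0.309), and JVM3 and MEC1 with 0.338 (0.259). Over all genes tested the values of r were 0.262, 0.303 and 0.213. These are across genes that share libraries and depth and are not independent replicates, and no p is given.

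Split by wave, the 20 S phase genes and the 25 genes of G2 and mitosis (MKI67 and TOP2A among them) were set side by side, with no test. Their median log2 fold changes were -0.38 and -0.43 in JVM3, -0.91 and -1.04 in HG3, and 0.18 and 0.11 in MEC1. In MEC1, 13 S phase genes were higher and 2 lower, and 12 genes of G2 and mitosis were higher and 4 lower. Of all genes tested in MEC1, 18% were higher and 18.6% lower, and neither wave exceeded that share of lower genes.

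The wild-type lines themselves differed in these genes. In wild-type HG3, 37 of the 45 were higher than in wild-type JVM3 and 3 were lower (E2F1, BUB1 and FOXM1), against 30.9% of all genes higher and 32.5% lower. The FOXM1 call was lost without wild-type replicate 2 of JVM3, where its log2 difference was -0.12. Against wild-type MEC1, wild-type HG3 had 42 lower and 1 higher (PCNA), beside 32.1% of all genes lower and 35.3% higher. Wild-type JVM3 had 44 lower than wild-type MEC1 and none higher, beside 33.9% and 37.9%. These are single lines, so the line and its culture cannot be told apart. The order MEC1, HG3, JVM3, from high to low, held for 38 genes in wild-type cells and for 20 in mutant cells, and the order MEC1, JVM3, HG3 held for 5 in wild-type and 24 in mutant cells.

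E2F2 had 38.6 and 35.3 CPM in wild-type HG3 and 12.9 and 13.1 in wild-type JVM3, a log2 difference of 1.51 ± 0.07. TK1 had 43.2 and 40.7 CPM in wild-type HG3 and 22.7 and 21.3 in wild-type JVM3, a difference of 0.93 ± 0.06. CCNE2 (1.03), UBE2C (0.92) and CCNA2 (0.81) also stood high in HG3 relative to JVM3 on that scale. E2F1 went the other way from E2F2, with 25.8 and 25.8 CPM in wild-type HG3 and 34.7 and 37.3 in wild-type JVM3, a difference of -0.48 ± 0.06. Against MEC1, the largest differences of HG3 were in MCM7 (-1.51 ± 0.04), E2F1 (-1.45 ± 0.06), CDC6 (-1.39 ± 0.05), TK1 (-1.27 ± 0.05) and GINS2 (-1.23 ± 0.05). JVM3 minus MEC1 was -2.51 ± 0.06 for E2F2 and -2.20 ± 0.06 for TK1, and TYMS did not pass in either comparison with MEC1 (adjusted p = 0.738 for HG3 and 0.103 for JVM3).

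Per kilobase of exon (FPKM), so that genes can be compared, PCNA was the highest of the 45 in every wild-type line, at 183 for JVM3, 275 for HG3 and 211 for MEC1. CCNE2 was the lowest, at 1.94, 3.97 and 6.34 FPKM in the same lines. MKI67 stood at 17.5 FPKM in mutant and 26.2 in wild-type JVM3, 13.6 in mutant and 26.1 in wild-type HG3, 56.6 in mutant and 41.5 in wild-type MEC1.

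**Figure D4:**
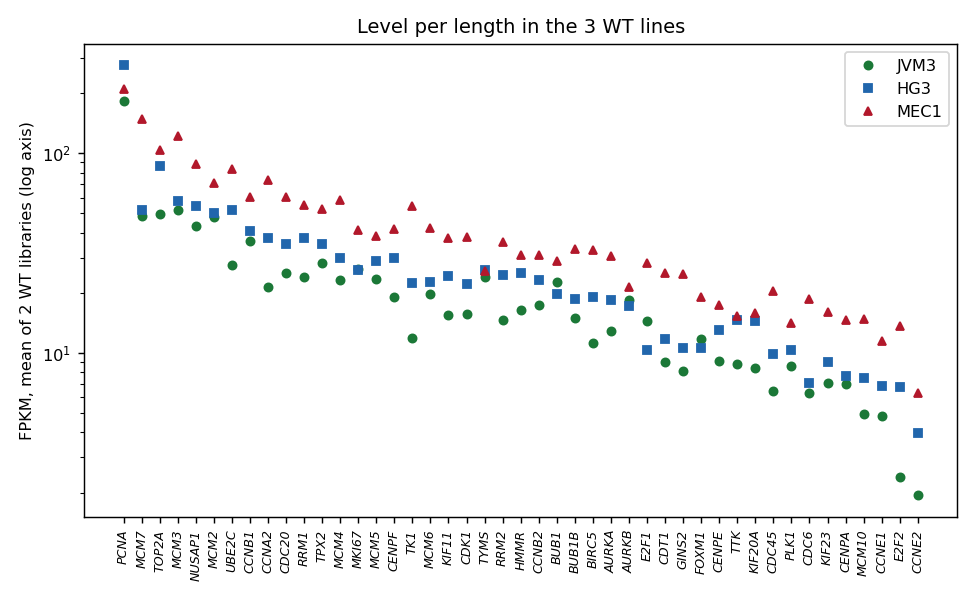
Mean FPKM of 2 wild-type libraries (y axis, log scale) for each of the 45 genes (x axis, ordered by the mean over lines) in JVM3, HG3 and MEC1. PCNA is the highest and CCNE2 the lowest, and MEC1 lies above the other lines for all genes but PCNA and TYMS.

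Other genes of the pathway were taken from lists of 144 genes around the 45. Across lines 4 of the 144 were lower by edgeR, near the share of all genes (1.86%), and none higher. The median log2 fold change of the 144 was -0.27, beside -0.01 over all genes tested. Within JVM3 86 were lower and 6 higher, against 12% and 10.4% of all genes. Within HG3 111 were lower and 8 higher, against 19.6% and 18.7%. Within MEC1 29 were lower, near the share of all genes (18.6%), and 60 were higher, against 18%. The 4 were CDC7, the kinase that fires origins with DBF4 (-0.67, SE 0.21, adjusted p = 0.0389), CHEK2, a DNA damage checkpoint kinase (-0.57, SE 0.04, 0.0222), CENPH of the kinetochore (-0.81, SE 0.18, 0.0151) and ANAPC5 of the anaphase-promoting complex (-0.34, SE 0.04, 0.0498). CHEK2 had 9.75 and 9.92 CPM in mutant against 14.1 and 14.1 in wild-type JVM3, 13.8 and 15.1 in mutant against 19.9 and 21.5 in wild-type HG3, 14.7 and 14.7 in mutant against 22.4 and 24.1 in wild-type MEC1. The CDC7 call was lost with no TMM factor (adjusted p = 0.0551), against a fold threshold of 1.2 (0.137) and without JVM3 (0.0776). The CHEK2 call was lost against that fold threshold (0.1003) and without JVM3 (0.0613) or MEC1 (0.0656). The ANAPC5 call was lost with no TMM factor (0.0623), against the fold threshold (0.516), without JVM3 (0.126), HG3 (0.128) or MEC1 (0.1102), without wild-type replicate 1 of JVM3 (0.0523), 2 of HG3 (0.0512) or 2 of MEC1 (0.0545), and with the filter set on the summed libraries (0.0528). The CENPH call was kept under every alternative run. All 4 were lower within each line, with MEC1 log2 fold changes of -0.45, -0.66, -0.69 and -0.36 in the order given.

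By role, the 29 spindle and cytokinesis genes had 27 lower in JVM3, 28 lower in HG3, and 3 lower and 20 higher in MEC1. The 25 kinetochore and checkpoint genes had 17 lower and 1 higher in JVM3, 22 lower and 1 higher in HG3, and 5 lower and 7 higher in MEC1. The 8 condensin genes, which compact chromosomes, had 7 lower in JVM3, 8 lower in HG3, and 1 lower and 4 higher in MEC1. The 24 genes of origin recognition and firing had 15 lower in JVM3, 18 lower and 1 higher in HG3, and 7 lower and 6 higher in MEC1. The 9 genes of G2 control and the DNA damage checkpoint had 7 lower in JVM3, 9 lower in HG3, and 2 lower and 6 higher in MEC1. The 16 anaphase-promoting complex genes had 3 lower and 3 higher in JVM3, 6 lower and 1 higher in HG3, and 6 lower and 4 higher in MEC1. Of all genes tested, 12% were lower and 10.4% higher in JVM3, 19.6% and 18.7% in HG3, and 18.6% and 18% in MEC1. In lists this small, counts of a few genes can lie near these shares, and no list was tested as a set.

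Upstream of the waves stand the genes that control E2F and the DREAM complex. The 7 D cyclin and G1 kinase genes had 4 lower and 1 higher in JVM3, 6 lower and 1 higher in HG3, and 1 lower and 5 higher in MEC1. The 8 genes of inhibitors of cyclin-dependent kinases had 1 higher in JVM3, 4 lower and 2 higher in HG3, and 1 lower and 3 higher in MEC1. The 11 RB family and other E2F genes had 3 lower in JVM3, 6 lower and 1 higher in HG3, and 3 lower and 4 higher in MEC1. The 7 DREAM and MYBL2 genes had 3 lower in JVM3, 4 lower and 1 higher in HG3, and 1 higher in MEC1. Shares of all genes were 12% lower and 10.4% higher in JVM3, 19.6% and 18.7% in HG3, and 18.6% and 18% in MEC1. Counts for the inhibitors in JVM3 and the DREAM genes in MEC1 lay near these shares. Among the D cyclins, CCND2 had 1992 and 2036 CPM in mutant against 2646 and 2606 in wild-type JVM3, 988 and 976 in mutant against 1608 and 1546 in wild-type HG3, 55.8 and 54.4 in mutant against 43.8 and 44.2 in wild-type MEC1. CCND2 had log2 fold changes of -0.38 ± 0.03 for JVM3, -0.68 ± 0.03 for HG3 and 0.33 ± 0.04 for MEC1. CCND1 was higher in mutant cells of every line (0.28 ± 0.08 for JVM3, 0.90 ± 0.12 for HG3 and 1.17 ± 0.08 for MEC1) and across lines its adjusted p was 0.0521. CDKN1A had 818 and 820.1 CPM in mutant against 683 and 678 in wild-type JVM3, 811 and 799 in mutant against 698 and 665 in wild-type HG3, 81.4 and 73.4 in mutant against 71.6 and 70.9 in wild-type MEC1. CDKN1A encodes p21, an inhibitor of cyclin-dependent kinases, and was higher within each line (0.27 ± 0.04 for JVM3, 0.24 ± 0.04 for HG3 and 0.12 ± 0.04 for MEC1), with an adjusted p of 0.18 across lines. MYBL2 had 34.7 and 32.1 CPM in mutant against 41.2 and 43.4 in wild-type JVM3, 104 and 103 in mutant against 209 and 195 in wild-type HG3, 307 and 287 in mutant against 286 and 269 in wild-type MEC1. MYBL2 was lower in JVM3 and HG3, at -0.34 and -0.96, and did not pass in MEC1 (adjusted p = 0.0609). RB1 was lower in each line (-0.24 ± 0.05 for JVM3, -0.44 ± 0.05 for HG3 and -0.17 ± 0.05 for MEC1). CCND1, CCND2, CDKN1A, MYBL2 and RB1 were chosen after their values were seen.

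Splice junctions could be placed in 16 of the 45 genes, 143 junctions in all, from a table with 1 column per line and U1 status. The other 29 genes were not analysed for junctions here. Percent use is a junction's share of the reads at its acceptor, the end of the intron. Of 32 junctions of these genes tested by edgeR's diffSpliceDGE, 1 was called, used more in mutant cells, against 2.07% of the 35315 junctions tested. It lies in MCM3 and joins the last exon to an exon that most transcripts skip.

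The junction from the skipped MCM3 exon took 9.19% of acceptor reads in mutant against 2.21% in wild-type JVM3, 16.1% in mutant against 1.33% in wild-type HG3, 32.4% in mutant against 1.74% in wild-type MEC1. The reads behind these were 34 of 370 against 11 of 498, 39 of 242 against 8 of 602, and 328 of 1011 against 23 of 1321, and the 95% Wilson intervals, which cover counting error only, did not overlap within any line. The mean was 19.2% ± 11.9 in mutant and 1.76% ± 0.44 in wild-type columns (SD, n = 3 lines), a change of 17.5 points (adjusted p = 1.15e-07 by diffSpliceDGE).

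The junction on the other side of the exon had 51 reads in mutant against 19 in wild-type JVM3, 72 in mutant against 18 in wild-type HG3, 533 in mutant against 37 in wild-type MEC1. Tested among the junctions that share its donor, it passed too (adjusted p = 0.00935 by diffSpliceDGE). In every column this junction had more reads than the junction from the exon to the last exon, and why was not tested. Averaged over these unequal sides, the exon was included in 11.2% of transcripts read across it in mutant against 2.99% in wild-type JVM3, 21.5% in mutant against 2.14% in wild-type HG3, 38.7% in mutant against 2.26% in wild-type MEC1. Limma on log ratios did not call it (adjusted p = 0.14), nor any other of the 35315 junctions after adjustment, with 5513 at an unadjusted p under 0.05.

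**Figure D5:**
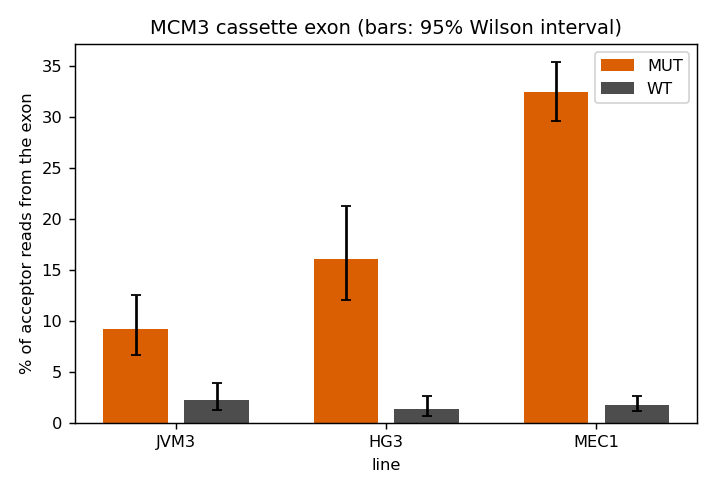
Share of reads at the acceptor of the last MCM3 exon that came from the skipped exon (y axis, percent, from 0), with mutant (orange) left of wild type (grey) in each line. Bars carry 95% Wilson intervals for counting error. Mutant shares were 9.19%, 16.1% and 32.4%, and wild-type shares were at most 2.21%.

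A further MCM3 exon with junctions absent from GENCODE release 29 lay at hg19 52146339 to 52146472, 134 bases. It was included in 2.88% of reads in mutant against 0.489% in wild-type JVM3, 5.22% in mutant against 1.18% in wild-type HG3, 6.6% in mutant against 0.955% in wild-type MEC1. Its junctions changed in one direction over the lines and passed the adjusted p of diffSpliceDGE, at 0.000901 among junctions sharing the acceptor and 0.0168 among those sharing the donor. They were not called because the mean changes, 3.71 and 4.32 points, were under the 5 points set for a call. MCM3 was among the 6 genes called lower in mutant cells of every line. Inclusion of both exons in mutant cells was highest in MEC1, where the fall of MCM3 was smallest. Whether the exons and the level are linked was not tested.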

How the data were processed

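The 12 libraries were grouped by line and U1 status, and the labels' replicate letters A and B are written here as replicates 1 and 2. Trizol was used to extract total RNA, and stranded, ribosome-depleted libraries were sequenced, per the labels' protocols. STAR 2.5.4b, HTSeq 0.9.1 and the builds hg19 and GRCh37 are named, per the submitters' processing notes. An annotation release or strand setting for the counting was not given in the sources used here. Gene values are raw read counts that the authors deposited, and lines naming no gene stayed out of library sizes and tests. Of all entries, these lines held 17.7% to 24.9% outside features and 29% to 34.9% without a unique alignment. Junction values are whole read counts that the authors deposited in 6 columns with no replicate number, taken as pooled, with 15537369 to 17917160 reads each, so a replicate could not be left out of a junction test. The technical replicates of a group differed by more than counting noise (mean chi-square per gene 2.14 to 4.80), so outside the test across lines they were kept as separate libraries.

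The 45 genes and the lists were chosen with earlier results of these data known. Gene symbols came from a gene name table (51996 of 57820 IDs). Genes were tested with edgeR 4.0.16 in R 4.3.3 (quasi-likelihood F-test, robust, TMM, filterByExpr, Benjamini-Hochberg adjustment over 21270 genes, threshold 0.05). Across lines, replicates were summed to 6 libraries with the line as a block, and SE is that of the 3 lines' values. Other comparisons used 1 fit of the 12 libraries in 6 groups, and SE is the fold change over the square root of the F statistic. FPKM divides CPM by the union exon length in GENCODE release 29. Both tests were run on simulated data. The junction test recovered 76.5% of 405 changed junctions and called 8 that were not changed, of 35910 tested. Its simulated reads had no difference between lines put in, and the changed junctions were well read and given the same large shift. These counts therefore do not give the rate of false or missed calls in the real data. The simulation within a line had almost no difference between cultures put in, so it cannot speak to that limit.

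Junctions were placed in genes by exact intron lengths and spacing against GENCODE release 29, which is on GRCh38. No coordinates were converted. Of 24145 genes with at least 3 introns 9522 were placed, against 1 on a wrong chromosome, and 9 of the 16 genes with junctions were placed by their own introns and 7 with the help of neighbouring genes. A junction call needed at least 20 reads, an adjusted p under 0.05 by diffSpliceDGE, a mean change of 5 points or more, and one direction over the lines. The sequence and position of the MCM3 exon with a called junction are not reported here. All 45 genes may be named. Library values are given for genes called across lines, the lowest p across lines and for a difference between lines in each role group, MKI67, TOP2A, CDK1, CCNB1, MCM2 and PCNA, and up to 5 called genes in each direction per comparison within a line or between wild-type lines. Alternatives were DESeq2, other size factors, no filter on low counts, libraries unsummed, a replicate block, a fold threshold and leaving out lines or libraries.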

Additional observations from a re-analysis of the deposited data

Results flagged for a closer look

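Each of the 45 genes responded differently in the lines: the 2-degree-of-freedom test of line by U1 status passed for all 45 (edgeR's quasi-likelihood test, adjusted p = 1.28e-21 for RRM2 to 2.14e-05 for PCNA), against 32% of all genes tested. The values below are the HG3 log2 fold change minus the MEC1 log2 fold change. They rest on technical replicates, so a difference between lines and one between their cultures cannot be told apart. No outlying sample was looked for, since groups hold 2 libraries.

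The G1/S regulators differed by -0.96 in CCNE1, -1.45 in CCNE2, -1.54 in E2F1 and -1.47 in E2F2. Among the licensing and helicase genes the difference was -1.11 in CDC6, -1.07 in CDT1, -0.73 in MCM2, -0.95 in MCM3, -0.87 in MCM4, -0.76 in MCM5, -0.48 in MCM6, -1.01 in MCM7, -1.38 in MCM10, -1.31 in CDC45 and -1.06 in GINS2. In nucleotide supply and the clamp it was -0.67 in RRM1, -1.35 in RRM2, -0.66 in TYMS, -1.46 in TK1 and -0.32 in PCNA. MCM6 and PCNA had the values nearest to 0 of the 45.

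The genes of G2 and mitotic entry differed by -1.17 in CDK1, -1.15 in CCNA2, -1.08 in CCNB1, -1.20 in CCNB2, -1.12 in FOXM1, -1.23 in PLK1, -0.92 in AURKA, -1.11 in AURKB and -1.36 in BIRC5. CDC20 and UBE2C of anaphase promotion differed by -1.43 and -1.17. At the checkpoint and kinetochore the difference was -0.84 in BUB1, -1.17 in BUB1B, -1.12 in TTK, -1.19 in CENPA, -1.08 in CENPE and -1.19 in CENPF. The spindle genes differed by -0.92 in KIF11, -1.31 in KIF20A, -1.20 in KIF23, -1.22 in TPX2, -0.94 in HMMR and -0.91 in NUSAP1, and MKI67 and TOP2A by -1.39 and -0.93.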

How the results depend on the processing

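All 45 genes passed the filter on low counts in every setting, and no setting varied depth. Across lines 1 of the 45 genes was lower, and the count depended on the setting. It was 0 with no TMM factor, 0 against a fold threshold of 1.2, 0 with the filter set on the 6 summed libraries (chosen after seeing the data), 6 with DESeq2 (3.7% of all genes lower), 26 with no filter on low counts (3.53%), 17 with the 12 libraries unsummed, so that technical replicates stand as independent (16.3%), and 9 with the libraries unsummed and the replicate block (12.4%). The deviations of same-numbered libraries correlated at 0.0171, 0.101 and 0.187 in the 3 lines, not all above 0.1, so the numbers were not taken to pair libraries. Leaving out a line or library gave 0 to 26, with 0 without JVM3, 26 without MEC1 (1.77% of all genes), 3 without mutant replicate 2 of HG3 (2.5%) and 0 without wild-type replicate 2 of MEC1. Without HG3, CDC20 and MCM2 turned to 0.0768 and 0.0282 on the log2 scale. The cause was not tested. Within lines, between responses and between wild-type lines, no count of called cell cycle genes moved by over 1.5 times. This held under every alternative run, the replicate block included. The count called within MEC1 still varied. It was 31 in the main fit (36.6% of all genes called), 25 with DESeq2 (27.8%) and 35 with a line by replicate block (40.4%). Leaving out any MEC1 library made it smaller too. Of the named genes' values, 854 kept direction and side of the threshold, 40 passed newly, 27 no longer passed and 2 changed sign. The MCM3 junction was called with minimums of 10 and 50 reads and without each line, and grouping by donor called the junction on the other side of the exon, but limma on log ratios called 0 junctions of the 45 genes (5513 of 35315 at an unadjusted p under 0.05). The junction fit pairs mutant and wild type by line, and its columns carry no replicate number to block on.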
